A study of Rattus norvegicus with 6 samples.

Results

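The CCN family was followed in rat myocardial tissue through 5 genes, Cyr61, Ctgf, Nov, Wisp1 and Wisp2, listed in the deposited table under the older symbols of CCN1 to CCN5. They were taken by symbol from the 33509 genes of the table, and all 5 had enough counts to be tested. Sprague-Dawley rats with an acute myocardial infarction gave 3 libraries, called MOD 1 to 3, and infarcted rats that received XHT gave 3 more, called XHT 1 to 3; the series title names Xinhuitong. Values given in threes follow the library numbers. Both groups therefore carried the infarct, and no uninjured heart was analysed here. Dose, time after infarction, age, the region sampled and whether each library came from its own animal were not in the labels, so the p-values measure only the spread between these libraries, which may be technical.

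CCN proteins are secreted, cysteine-rich matricellular proteins. They sit in the extracellular matrix without building it, and act by binding integrins, heparan sulphate proteoglycans and growth factors. Ctgf and Cyr61 are textbook targets of the Hippo pathway, in which the coactivators YAP and TAZ bind DNA through TEAD factors, and both also respond to TGF-beta and to serum response factor. Ctgf is widely used as a marker of fibrosis, Cyr61 is an immediate early gene known for its action on vessels and on fibroblast senescence, and Wisp1 and Wisp2 were named for their induction by WNT1. Wisp2 differs from its relatives in lacking the C-terminal cystine knot module.

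Ctgf and Cyr61 are shown by their promoters, because by textbook knowledge these genes share a regulator, while Ctgf was called lower in XHT and Cyr61 was not called. Their ratio did not differ between groups at the threshold (exact permutation p = 0.1, adjusted p = 0.143), which 3 against 3 libraries cannot reach. Without XHT 3 neither gene was called, at log2 fold changes of -2.15 for Ctgf and -1.37 for Cyr61. RefSeq windows of 300 bases, 250 before and 50 after the annotated start, were read on the minus strand of GRCr8 at chr1:22624565-22624864 for Ctgf (Ccn2) and chr2:237225640-237225939 for Cyr61 (Ccn1). Capitals mark matches to the TEAD motif GGAATG, in either orientation, and to the TATA motif TATAAA.
Ctgf: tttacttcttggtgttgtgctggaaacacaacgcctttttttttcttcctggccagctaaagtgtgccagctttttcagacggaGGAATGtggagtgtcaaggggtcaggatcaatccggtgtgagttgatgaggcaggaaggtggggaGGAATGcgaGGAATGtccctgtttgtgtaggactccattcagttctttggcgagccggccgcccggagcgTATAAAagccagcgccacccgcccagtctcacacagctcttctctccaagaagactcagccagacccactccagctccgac
Cyr61: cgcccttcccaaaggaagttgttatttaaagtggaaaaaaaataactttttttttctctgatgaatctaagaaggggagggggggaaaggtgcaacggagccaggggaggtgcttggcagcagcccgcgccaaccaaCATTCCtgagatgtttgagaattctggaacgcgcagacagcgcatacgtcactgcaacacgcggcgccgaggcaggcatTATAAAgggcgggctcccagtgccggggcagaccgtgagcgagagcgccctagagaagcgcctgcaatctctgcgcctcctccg

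The Ctgf window held 3 TEAD motifs, beginning 166, 101 and 92 bases upstream of the start, none overlapping another motif searched. The Cyr61 window held 1, in the reverse orientation (CATTCC), 113 bases upstream. Of 33469 RefSeq promoter windows of the same length, 14.2% held at least 1 such motif and 0.0956% held 3 or more. Each window also held 1 TATA motif, 31 bases upstream in Ctgf and 34 in Cyr61, as did 14.2% of windows at least once. Neither window matched the AP-1 motif TGANTCA, present in 7.33% of windows, the TCF/LEF motif CTTTGAT, present in 3.63%, or the CArG box of serum response factor, present in 1.64%, on either strand. A match describes the letters only and shows no binding, and a link between motif number and the values of these genes was not tested.

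In XHT, 4 of the 5 CCN genes were lower than in MOD, and Cyr61 was not called in either direction. Wisp1 and Wisp2 had the larger differences and Nov and Ctgf the smaller ones. The quasi-likelihood test of edgeR was used, with p-values adjusted over all genes by Benjamini-Hochberg and a threshold of 0.05. Of the 14488 genes tested, 16.1% were called lower in XHT, 12.4% were called higher and 28.5% were called in either direction. The median log2 fold change was -2.44 over the 5 genes and -0.02 over all genes tested. The same 4 genes had 3 MOD values wholly above the 3 XHT values, a pattern found in 26.6% of all genes tested; 24.7% had the opposite order, and 51.3% were separate in either direction. Bulk tissue was sequenced, so fewer cells of a type and less RNA per cell cannot be told apart in any of these values.

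**Figure D1:**
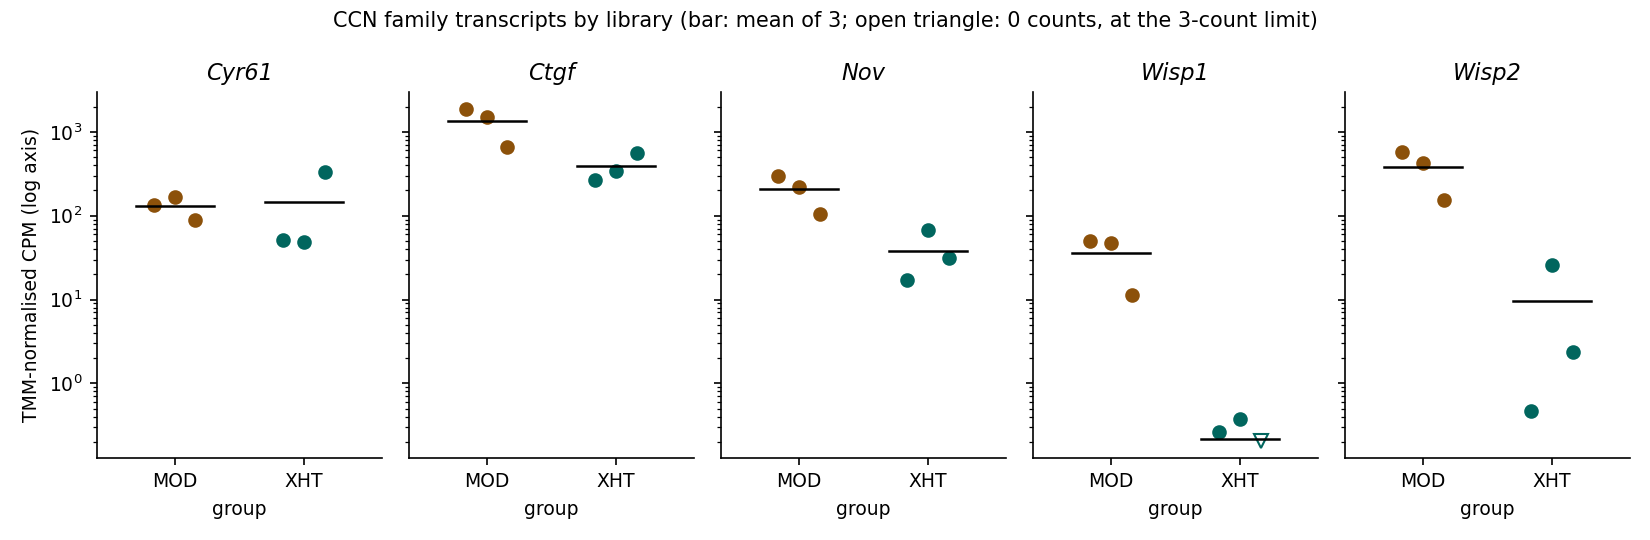
TMM-normalised CPM (log axis) of each CCN gene in the 3 MOD and 3 XHT libraries, 1 point per library with the group mean as a bar; the open triangle marks 0 counts and is drawn at the limit of 3 counts. The groups are separate for Ctgf, Nov, Wisp1 and Wisp2, and for Cyr61 XHT 3 lies above every MOD library.

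Wisp1 (ENSRNOG00000007078, CCN4; chromosome 7, 107695203 to 107726936, plus strand), a WNT1-inducible protein that in cultured heart cells promotes fibroblast growth, was close to undetected in XHT. Positions here and for the other members are those of the deposited table, and the sources used here do not name its genome build. Wisp1 stood at 49.3, 47.0 and 11.2 CPM across MOD 1 to 3 and at 0.266, 0.377 and 0 CPM in XHT 1, 2 and 3. CPM are TMM-normalised counts scaled to the library total. All XHT libraries were far below the lowest MOD library, MOD 3, which itself lay well under MOD 1 and MOD 2. The raw counts were 936, 951 and 218 in MOD and 4, 6 and 0 in XHT, and the count of 0 in XHT 3 allows up to 0.204 CPM. From 2105 against 10 counts, MOD was 164 times higher, and the 95% exact interval, for counting error alone, was 88.9 to 342. The fitted log2 fold change was -7.32 ± 0.94 (SE; edgeR adjusted p = 0.00972). Without XHT 1 the adjusted p was 0.0549, and with any other library left out it was 0.0459 or less.

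Wisp2 (ENSRNOG00000010666, CCN5; chromosome 3, 160207913 to 160219331, plus strand), which in mouse hearts opposes fibrosis and hypertrophy, had the second largest log2 fold change. Its CPM were 569.7, 421.7 and 153.3 across MOD 1 to 3 and 0.465, 26.1 and 2.38 in XHT 1, 2 and 3. The groups did not overlap, yet XHT 2 was far above XHT 3 and XHT 1. The group means were 381.5 ± 211.1 and 9.66 ± 14.3 CPM (SD, n = 3 each), and the log2 fold change was -5.30 ± 1.40 (SE; edgeR adjusted p = 0.0329). Without XHT 2 the log2 fold change was -8.05 ± 1.08 and the adjusted p 0.0124. It missed the threshold when MOD 1 (adjusted p = 0.0891), MOD 2 (0.0754), XHT 1 (0.0715) or XHT 3 (0.104) was left out, and when genes with low counts were kept in the test (0.0522). Markers of several cell types also stood highest in XHT 2 among the XHT libraries. The epicardial and mesothelial genes summed to 27.5, 106.4 and 50.9 CPM over XHT 1 to 3, although Wt1 in that list was highest in XHT 3. The activated fibroblast markers summed to 221.6, 452.5 and 367.3 CPM, although Acta2, Ddah1 and Fmod among them were highest in XHT 3. The erythroid markers summed to 532, 1899 and 176.6 CPM. The 10 fibroblast markers summed to 6264, 9040 and 9275 CPM, highest in XHT 3. Their mean log2 CPM was 7.24, 8.35 and 7.23, highest in XHT 2. Col1a1, a fibroblast collagen singled out after its values were seen, stood at 64.4, 530 and 36.4 CPM. The part of these in the Wisp2 value of XHT 2 was not tested.

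Nov (ENSRNOG00000008697, CCN3; chromosome 7, 94375020 to 94383024, plus strand), a member often described as counteracting Ctgf, fell to a lesser degree. It stood at 298.1, 220.6 and 105.8 CPM across MOD 1 to 3 and at 17.0, 66.7 and 31.6 CPM in XHT 1, 2 and 3. MOD 3 was the lowest MOD library and XHT 2 the highest XHT library, and the 2 remained apart. The log2 fold change was -2.44 ± 0.57 (SE; edgeR adjusted p = 0.0246). The call was lost without MOD 1 (adjusted p = 0.0813), MOD 2 (0.0662), XHT 1 (0.0772) or XHT 3 (0.0929).

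Ctgf (ENSRNOG00000015036, CCN2; chromosome 1, 21851660 to 21854773, minus strand), the profibrotic member downstream of TGF-beta and YAP, had the smallest difference of the 4. Its CPM were 1893, 1502 and 654.6 across MOD 1 to 3 and 266.0, 338.4 and 564.4 in XHT 1, 2 and 3. The gap between the lowest MOD value, in MOD 3, and the highest XHT value, in XHT 3, was narrow. The means were 1350 ± 633 and 389.6 ± 155.6 CPM (SD, n = 3 each), and the log2 fold change was -1.79 ± 0.50 (SE; edgeR adjusted p = 0.0367). The call was lost without MOD 1 (adjusted p = 0.114), MOD 2 (0.101), XHT 1 (0.125), XHT 2 (0.0886) or XHT 3 (0.0729); without MOD 3 it was 0.00301.

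Cyr61 (ENSRNOG00000014350, CCN1; chromosome 2, 251529354 to 251532312, minus strand) did not follow the others. It stood at 133.7, 167.8 and 88.8 CPM across MOD 1 to 3 and at 51.6, 48.3 and 331.5 CPM in XHT 1, 2 and 3. XHT 1 and XHT 2 were below every MOD library, whereas XHT 3 was the highest of the 6. The log2 fold change was 0.14 ± 0.74 (SE; edgeR adjusted p = 0.895), and with libraries scaled to their total counts it was -0.31. Without XHT 3 it was -1.37 ± 0.31, with an adjusted p of 0.0608. Egr1, an immediate early transcription factor on the list of SRF and AP-1 genes and singled out after its values were seen, had a like profile: 75.9, 76.3 and 76.9 CPM across MOD 1 to 3 and 32.4, 61.5 and 293.7 CPM in XHT 1, 2 and 3. Junb, an AP-1 subunit singled out in the same way, was also highest in XHT 3, at 274.2 CPM against 75.7 to 181.1 in MOD. Fos, at 17.6 CPM in XHT 3, was close to its MOD values of 11.7 to 16.7 CPM. Among the other tested genes of that list, Fosb, Fosl2, Jun, Srf and Myocd were highest of the 6 libraries in XHT 3. Jund, Fosl1 and Mkl1 were highest in a MOD library.

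**Figure D2:**
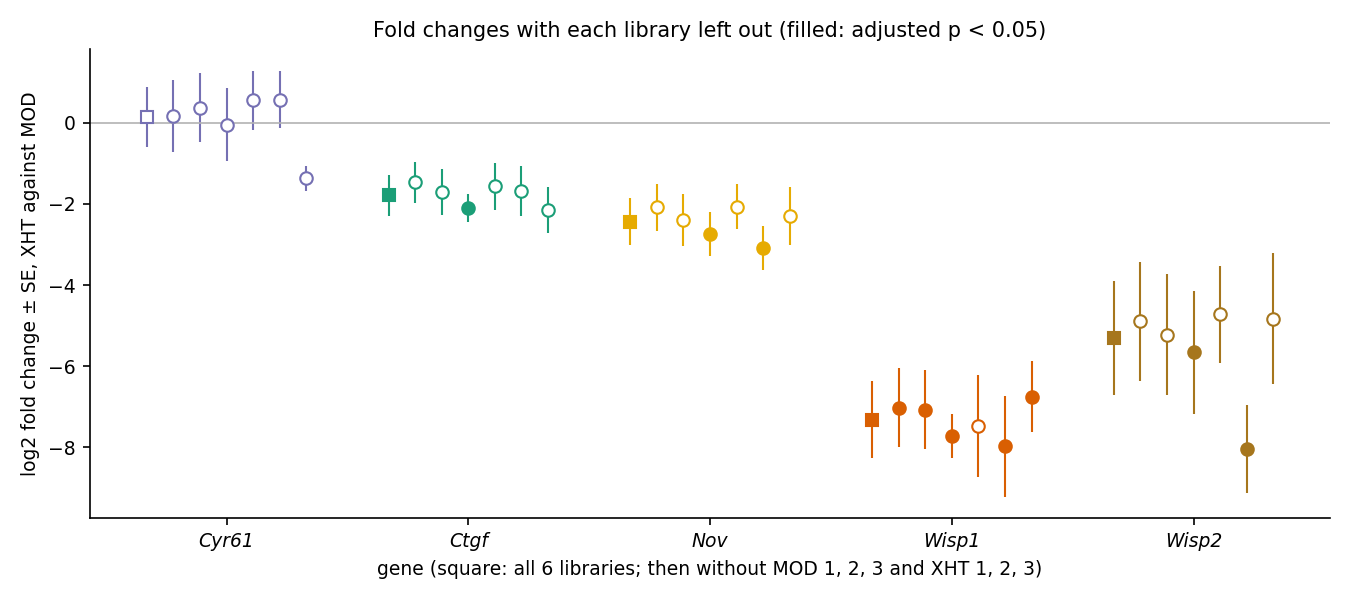
Log2 fold change of XHT against MOD (± SE) for each CCN gene with all 6 libraries (square) and with each library left out in turn (circles); filled symbols have an adjusted p under 0.05. The 4 genes called lower stay below 0 in every fit, Cyr61 moves to -1.37 without XHT 3, and Wisp2 to -8.05 without XHT 2.

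A further relative, Wisp3 (ENSRNOG00000000597, CCN6; chromosome 20, 44237491 to 44255064, minus strand), was near absent. It had 5, 0 and 1 counts across MOD 1 to 3 and 0 in each XHT library, was not tested, and overlaps Tube1 in the table, so its reads cannot be assigned with certainty if counting ignored the strand. None of the 5 members overlaps another gene of the table. In the authors' deposited table, the log2 fold changes were -7.34 for Wisp1, -5.28 for Wisp2, -2.41 for Nov, -1.76 for Ctgf and 0.19 for Cyr61, with adjusted p-values of 6.05e-18, 0.00163, 0.000175, 0.00131 and 0.872.

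Levels were compared between members per gene length, on the deposited FPKM scale. The family total was 1176, 955.5 and 403.6 FPKM across MOD 1 to 3 and 130.5, 189.2 and 391.9 FPKM in XHT 1, 2 and 3. MOD 3 and XHT 3 were thus almost level in total, and differed in make-up. Ctgf was the most abundant member in every library, from 97.5 FPKM in XHT 1 to 676.5 FPKM in MOD 1. Wisp2 was the next most abundant in each MOD library, at 305.9, 229.7 and 82.2 FPKM, but ranked below Cyr61 and Nov in each XHT library, at 0.256, 14.3 and 1.33 FPKM. Cyr61 and Nov were neighbours that changed order: Nov was higher in MOD 1 (118.6 against 65.3 FPKM), the pair lay close together in MOD 2 (89.1 against 83.1 FPKM), MOD 3 (42.1 against 43.4 FPKM) and XHT 2 (27.1 against 24.1 FPKM), and Cyr61 was higher in XHT 1 (25.8 against 6.92 FPKM) and XHT 3 (168.1 against 13.1 FPKM). Wisp1 was the least abundant member throughout, with at most 9.42 FPKM.

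As a share of the family total, Ctgf held 57.5%, 57.0% and 57.9% across MOD 1 to 3, a narrow range. In XHT it held 74.7%, 65.3% and 53.4%. Wisp2 made up 20.4% to 26% across the MOD libraries, against 0.196%, 7.57% and 0.339% in XHT. Cyr61 held 5.56%, 8.70% and 10.7% in the MOD libraries and the higher shares of 19.8%, 12.7% and 42.9% in XHT, with no overlap. Nov overlapped between groups, with 9.95% ± 0.57 over the MOD libraries and 7.66% ± 5.87 over the XHT libraries (SD, n = 3 each). These shares do not depend on how libraries were scaled, but a share rises when another member falls. The XHT means rested on single libraries: Wisp2 went from 2.70% to 0.268% and Nov from 7.66% to 4.32% without XHT 2, and Cyr61 from 25.1% to 16.3% without XHT 3.

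**Figure D3:**
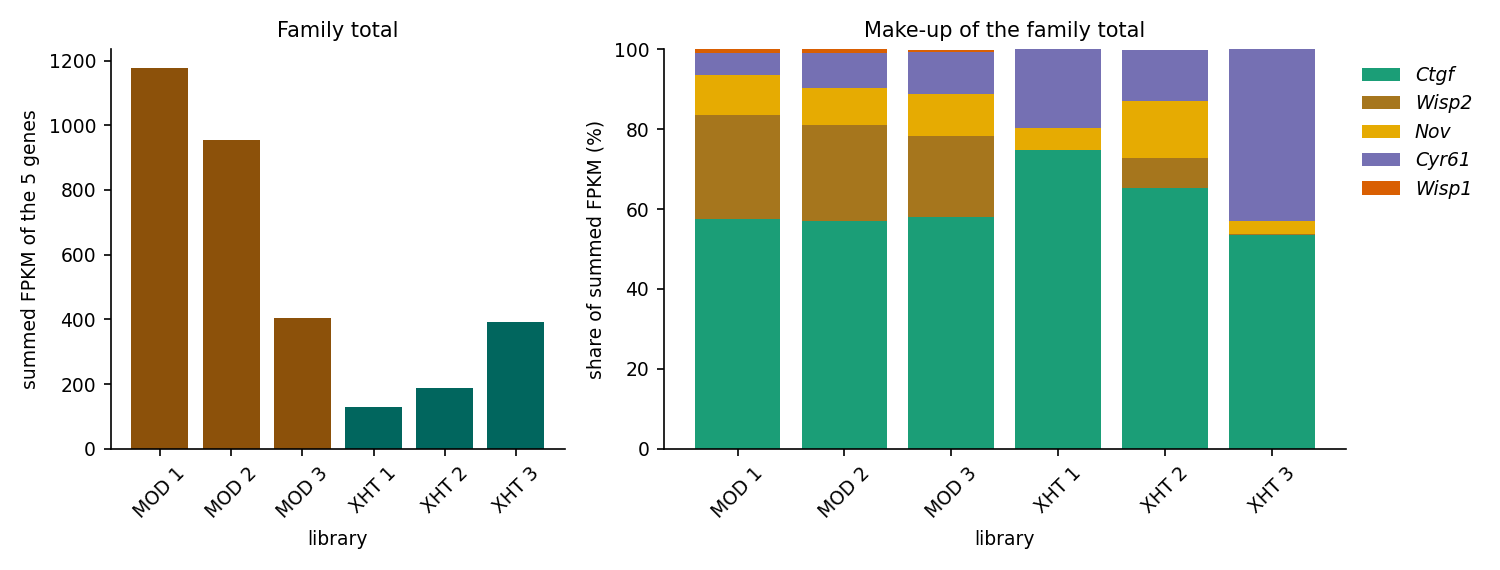
Left, summed FPKM of the 5 CCN genes in each library; right, the share of each gene in that sum in percent. Ctgf is close to 57% in all MOD libraries, Wisp2 is at least 20.4% in MOD and at most 7.57% in XHT, and Cyr61 reaches 42.9% in XHT 3.

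Ratios between members within a library were compared for all 10 pairs by two-sided exact permutation tests, where 3 against 3 cannot give a p below 0.1. For 7 pairs the groups did not overlap (exact permutation p = 0.1, adjusted p = 0.143 over the 10 pairs), so none passed the threshold. Apart from Cyr61 to Ctgf, each of these pairs contains Wisp1 or Wisp2, so they are not separate results. The share of separate pairs among other genes was not computed. Of single genes tested, 51.3% were separate in either direction. The ratio of Ctgf to Wisp2 on the log2 CPM scale was 1.73, 1.83 and 2.09 across MOD 1 to 3 and 8.80, 3.69 and 7.81 in XHT, a difference of 4.88 that was 3.86 without XHT 1 and 6.42 without XHT 2. The ratio of Cyr61 to Ctgf was -3.82, -3.16 and -2.88 in MOD and -2.36, -2.81 and -0.77 in XHT, a difference of 1.31 that was 0.70 without XHT 3. Ctgf and Nov kept a near constant ratio in MOD, 2.67, 2.77 and 2.63, and overlapped it in XHT at 3.96, 2.34 and 4.15 (exact permutation p = 0.4). The ratio of Wisp1 to Wisp2 averaged -3.48 ± 0.30 over MOD and -3.50 ± 2.63 over XHT (SD, n = 3 each; exact permutation p = 1), where the XHT values ranged from -5.71 to -0.59 and the Wisp1 term rests on at most 6 counts per library. With a prior count of 0.5 in place of 2, the difference between groups was 5.80 in place of 4.90 for Ctgf to Wisp1, 4.99 in place of 4.10 for Nov to Wisp1 and -0.81 in place of -0.02 for Wisp1 to Wisp2.

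Marker genes of several cell types moved with the groups. Over all genes tested, 16.1% were called lower and 12.4% higher. Of 9 activated fibroblast markers, 7 were called lower, and their summed level was 2468 to 10650 CPM in MOD and 221.6 to 452.5 CPM in XHT. Of 10 fibroblast markers, 7 were called lower and 1 higher, with sums of 14300 to 30290 and 6264 to 9275 CPM. Macrophage markers, 6 of 8 lower, summed to 1722 to 3146 CPM in MOD and 608.6 to 859.2 in XHT. Cardiomyocyte markers, the defining genes of the labelled tissue, were present in every library and summed to 2704, 2370 and 22950 CPM across MOD 1 to 3 and 30850 to 42590 in XHT. Of 9 tested, 1 was called higher, near the share over all genes, but their median log2 fold change was 2.07. For 6 of the 9, every XHT value lay above every MOD value, an order found in 24.7% of all genes tested. MOD 3, the lowest MOD library for Ctgf, Nov, Wisp1, Wisp2 and Cyr61, thus lay between the other MOD libraries and XHT in these markers. No marker of these 4 lists that was in the table stood at 0 counts across the libraries, and the part of cell make-up in the CCN values was not tested. Among the other lists, 3 of 6 cartilage and bone markers, 3 of 10 smooth muscle and pericyte markers, 2 of 5 lymphocyte markers, 1 of 6 Schwann and neural markers and 1 of 7 endothelial markers were called lower. Called higher were 1 smooth muscle, 1 endothelial and 1 of 4 erythroid markers. The Schwann and neural share called lower and both endothelial shares were near those over all genes. Cldn5 and Npy had 0 counts.

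Set beside the mean log2 CPM of the 10 fibroblast markers in the same library, Wisp1 and Wisp2 were separate between groups and the other 3 members overlapped. Wisp1 lay at -4.20, -4.53 and -5.87 across MOD 1 to 3 and at -8.57, -9.34 and -10.11 in XHT, and Wisp2 at -0.68, -1.36 and -2.11 in MOD and -7.99, -3.64 and -5.90 in XHT. Both were thus lower in XHT relative to these markers, with differences of -4.475 and -4.46 on the log2 scale. The groups did not overlap (exact permutation p = 0.1, adjusted p = 0.25 over the 5 genes). On plain CPM, 26.6% of all genes tested were separate and lower in XHT. The share of all genes separate relative to these markers was not computed. The Wisp1 value rests on 4, 6 and 0 counts and on the prior count of 2, and the Wisp2 value was -3.39 without XHT 1 and -5.56 without XHT 2. The 10 markers did not move alike, with log2 fold changes from -5.995 (Col1a1) to 1.877 (Gsn, called higher). The 9 activated fibroblast markers, not part of this mean, ran from -7.675 (Cthrc1) to -0.79 (Fmod), with a median of -3.31. Wisp1, at -7.32, and Wisp2, at -5.30, lay within that range. Ctgf and Nov overlapped between groups, with differences of 0.42 and -0.38 (exact permutation p = 0.6 each), and with Col1a1 and Col1a2 left out of the markers the differences were -0.40 and -1.20. Without XHT 3 the Ctgf difference was -0.07. Cyr61 was steady in MOD, at -2.77, -2.69 and -2.90, and spread from -2.75 to 1.14 in XHT (exact permutation p = 0.2); the difference of 1.73 was 0.63 without XHT 3.

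**Figure D4:**
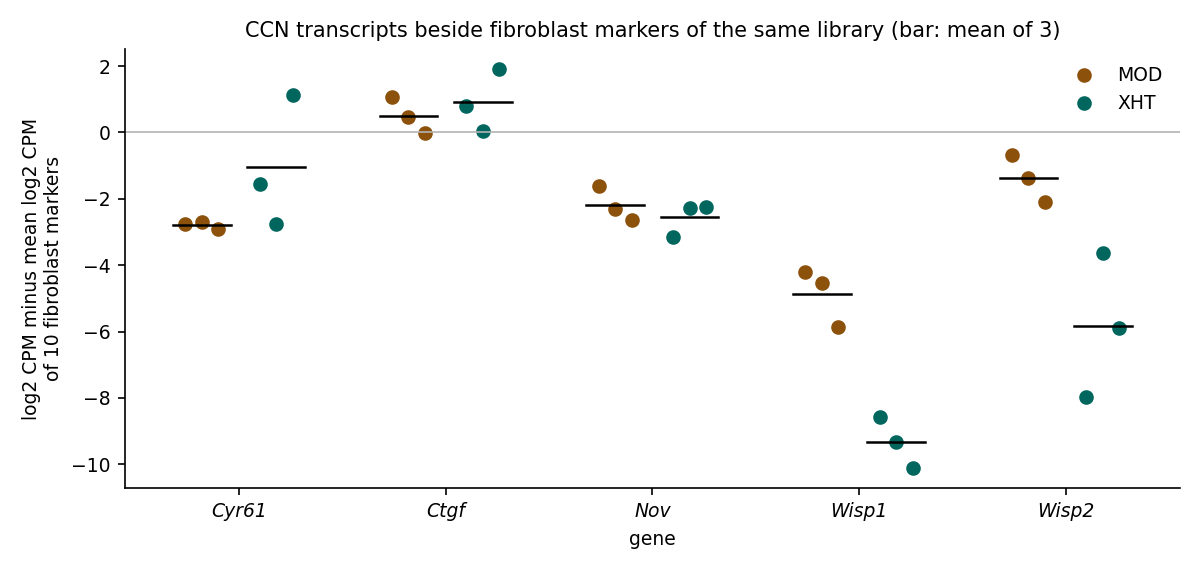
Log2 CPM of each CCN gene minus the mean log2 CPM of 10 fibroblast markers in the same library, 1 point per library (MOD and XHT, 3 each) with the group mean as a bar. Wisp1 and Wisp2 are lower in every XHT library than in any MOD library, and Ctgf and Nov overlap.

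Genes of the pathways around the CCN family were counted against the 12.4% called higher and 16.1% called lower over all genes. The number called over all genes itself swung with single libraries: 128 higher and 375 lower when MOD 1 was left out, 227 and 570 for MOD 2, 3487 and 3421 for MOD 3, 4 and 4 for XHT 1, 1472 and 2135 for XHT 2, and 148 and 288 for XHT 3. The shifts in the lists described next occurred together with these.

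Of 20 Hippo kinases and YAP, TAZ and TEAD genes, 2 were called higher, 3 lower and 15 in neither direction, shares near those over all genes, with a median log2 fold change of 0.30. Tead1, a TEAD factor of heart muscle, stood at 3.00, 4.50 and 5.35 CPM across MOD 1 to 3 and at 15.2, 11.7 and 21.5 CPM in XHT (log2 fold change 1.91 ± 0.32 SE; edgeR adjusted p = 0.0132). Tead4, a further TEAD factor, rose by 1.22 ± 0.32, whereas Tead2 changed by -1.33 ± 0.30 and Stk3, the kinase MST2, by -0.73 ± 0.20. The coactivators themselves did not pass, which does not show that they were equal: Yap1 was at 11.8, 17.1 and 31.2 CPM in the MOD libraries and at 32.6, 32.7 and 26.1 CPM in XHT, and Wwtr1, which encodes TAZ, at a mean of 27.9 and 45.2 CPM (edgeR adjusted p = 0.209 and 0.0987). With scaling to total counts, 1 gene of this list was higher and 8 lower. When MOD 1, XHT 1 or XHT 3 was left out, 0 genes of the list were called, leaving out MOD 2 gave 1 and leaving out MOD 3 gave 14.

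Of 19 tested YAP and TAZ targets outside the CCN family, 4 were called higher and 3 lower (median log2 fold change 0.26). Ankrd1, a stretch-responsive muscle protein, stood at 414.9, 436.6 and 1715 CPM across MOD 1 to 3 and at 5180, 4739 and 8712 CPM in XHT, a log2 fold change of 2.86 ± 0.72 (edgeR adjusted p = 0.0288). Nt5e, the ectonucleotidase CD73, rose from 56.3 ± 7.85 to 132 ± 6.03 CPM, whereas Myof, a membrane repair protein, fell from 107.2 ± 31.0 to 21.5 ± 4.67 CPM and Ccdc80, a matrix protein, from 1578 ± 562 to 225.3 ± 120.8 CPM (SD, n = 3 each). Rbms3, an RNA-binding protein, changed by -1.30 ± 0.26. Ctgf and Ankrd1, both textbook YAP targets, thus passed in opposite directions. The cardiomyocyte markers also stood higher in XHT, with sums of 2704, 2370 and 22950 CPM in MOD and 30850 to 42590 in XHT. Their part in the Ankrd1 values was not tested. With scaling to total counts, 3 genes of the list were higher and 4 lower. Leaving out MOD 1 or XHT 3 gave 2 called targets, leaving out MOD 2 gave 3, and leaving out XHT 1 gave 0.

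On the TGF-beta list, 6 of 14 genes were called lower and 2 higher (median log2 fold change 0.06). Tgfb3, a TGF-beta ligand, stood at 291.8, 310.7 and 196.8 CPM across MOD 1 to 3 and at 38.1, 60.6 and 45.8 CPM in XHT (log2 fold change -2.47 ± 0.28; edgeR adjusted p = 0.00816). Tgfb1, the ligand most tied to fibrosis, fell from 134.5 ± 10.3 to 73.9 ± 18.6 CPM and Tgfbr1, the type I receptor, from 64.7 ± 8.31 to 25.8 ± 1.22 CPM (SD, n = 3 each). Ltbp3 and Ltbp1, which hold latent TGF-beta in the matrix, changed by -2.16 ± 0.39 and -0.81 ± 0.19 on the log2 scale. The 2 genes called higher were Tgfbr3, at 1.02 ± 0.27, and Smad4, at 0.80 ± 0.23. Not called were Smad7, Skil, Smad6, Tgfbr2 and Smad3, at 0.72, 1.03, 0.81, 0.43 and 0.37, and Smad2, at -0.24. With scaling to total counts, 0 genes of this list were higher and 7 lower. Called TGF-beta genes numbered 2 if MOD 1 or XHT 3 was left out, 3 if MOD 2 was, 10 if MOD 3 was (6 lower and 4 higher), and 0 if XHT 1 was.

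Of 13 tested Wnt to beta-catenin genes, 5 were called lower and 0 higher (median log2 fold change -0.75); none was higher by DESeq2, and at an unadjusted p under 0.05 edgeR gave 6 lower and 0 higher. Axin2 and Nkd1, feedback targets of beta-catenin, stood at 3.76 to 5.83 and 9.26 to 18.8 CPM in MOD and at 1.53 to 2.26 and 2.59 to 3.81 CPM in XHT, with log2 fold changes of -1.30 ± 0.32 and -2.13 ± 0.33. Nkd2, a related inhibitor, changed by -1.06 ± 0.23. Sfrp2, a secreted Wnt modulator, stood at 602.8, 627.6 and 110.5 CPM across MOD 1 to 3 and at 5.72, 17.7 and 9.53 CPM in XHT (log2 fold change -5.35 ± 0.80; edgeR adjusted p = 0.0109). Wnt1 itself was too low to be tested. With scaling to total counts, 8 were lower. Called Wnt genes numbered 2 if MOD 1 or MOD 2 was left out, 9 if MOD 3 was (8 lower and 1 higher), 1 if XHT 3 was and 0 if XHT 1 was.

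Of 11 tested SRF, MRTF and AP-1 genes, 2 were called higher and 1 lower, near the 28.5% called over all genes in either direction. Fosl2, an AP-1 subunit, and Myocd, the cardiac and smooth muscle partner of SRF, had log2 fold changes of 1.84 ± 0.44 and 1.89 ± 0.50, and Mkl1, an actin-sensing SRF partner, changed by -0.68 ± 0.16. No gene of the list was called by edgeR if MOD 1, MOD 2, XHT 1 or XHT 3 was left out.

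**Figure D5:**
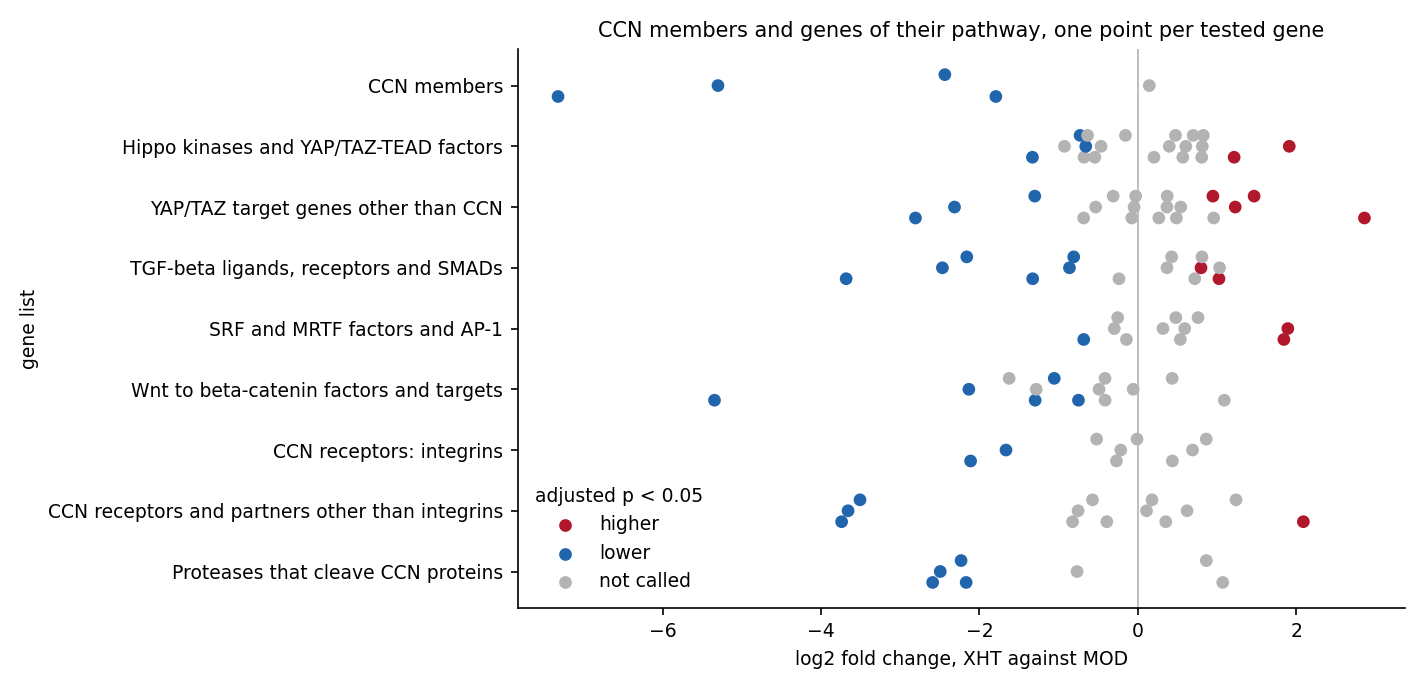
Log2 fold change of XHT against MOD for the 5 CCN genes and for the tested genes of 8 pathway lists, 1 point per gene, coloured by call at an adjusted p under 0.05. The CCN genes reach -7.32, and the YAP and TAZ targets have called genes on both sides of 0.

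Among receptors, 2 of 9 tested integrin chains were called lower and 0 higher, near the 16.1% called lower over all genes. These were Itgb2 and Itgam, the chains of the leukocyte integrin Mac-1, with log2 fold changes of -2.11 ± 0.28 and -1.67 ± 0.26 (edgeR adjusted p = 0.00988 and 0.0117); both are also leukocyte genes. At an unadjusted p under 0.05, 1 integrin, Itga2b, was higher. Itgav, Itgb3, Itgb5 and Itgb1, chains by which CCN proteins bind fibroblasts and endothelium, had log2 fold changes of -0.27, 0.44, -0.01 and -0.22 and were not called. Leaving out XHT 1 gave 0 called integrins, and leaving out XHT 2 gave 2 lower and 1 higher. Of 13 other receptors and partners, 3 were called lower and 1 higher. Sdc4, a heparan sulphate coreceptor, rose from 30.9, 42.9 and 21.7 CPM across MOD 1 to 3 to 103, 73.0 and 230.5 CPM in XHT (log2 fold change 2.09 ± 0.47; edgeR adjusted p = 0.0219). The matrix partners Fn1, Bgn and Acan changed by -3.74 ± 0.70, -3.66 ± 0.61 and -3.51 ± 0.70. With scaling to total counts, 1 was higher and 6 lower. Called partners numbered 1 if MOD 1 was left out, 2 if MOD 2 was, 8 if MOD 3 was and 0 if XHT 1 or XHT 3 was.

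Of 7 tested proteases on the list of enzymes that cleave CCN proteins, 4 were called lower and 0 higher by edgeR or DESeq2, and 1, Adamts1, was higher at an unadjusted p under 0.05. Mmp14, a membrane metalloproteinase, fell from 239.5 ± 69.3 to 51.0 ± 8.04 CPM and Mmp2, a gelatinase, from 1201 ± 391 to 267.2 ± 80.2 CPM (SD, n = 3 each). Plau, the urokinase, and Bmp1, a procollagen protease, changed by -2.59 ± 0.35 and -2.50 ± 0.43. Mmp3, Mmp7, Mmp13 and Elane were too low to be tested and Adam28 had 0 counts. Called proteases numbered 2 if MOD 1 or XHT 3 was left out and 0 if XHT 1 was; if XHT 2 was left out, 4 were lower and 1 higher.

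The table annotates all 5 members with the von Willebrand type C domain, an annotation that 10 further genes carried. Of the 6 of these that were tested, 2 were called lower, the collagens Col3a1 (log2 fold change -5.10 ± 1.23) and Col5a2 (-3.06 ± 0.48), 1 was called higher, Crim1 (1.47 ± 0.36), and 3 were not called. These genes were chosen after the values were seen. Over all genes tested, 16.1% were called lower and 12.4% higher, and 6 genes are too few to tell their shares from these.

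By Pearson's r of log2 CPM over the 6 libraries, a description in which all genes share the same libraries, the genes closest to Cyr61 among 11087 compared were Cables2 (r = 0.98), Atf3, a stress-induced transcription factor (0.97), and U2af1, a splicing factor (0.96). Atf3 stood at 21.4, 25.2 and 21.0 CPM across MOD 1 to 3 and at 11.7, 13.9 and 37.2 CPM in XHT, so it shared the peak in XHT 3. The closest to Ctgf were Zfp513, Ube2q1 and Tceal8, with r from 0.993 to 0.997. Those closest to Nov were Tmem219, Msrb2 and Prkar2b, and those closest to Wisp1 were Traf7, Prr5l and Sema6c, with r from 0.9969 to 0.998. Wisp2 was closest to Parva, Rin3 and Ltbp2, the last a matrix protein that, like Wisp2, was highest among the XHT libraries in XHT 2, at 88.0 CPM against 4.85 and 11.3 in XHT 1 and XHT 3.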

How the data were processed

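RNA of rat myocardial tissue was measured by paired-end RNA-seq after poly(A) selection with dUTP strand marking, per the labels' protocols. The authors deposited raw counts per gene and library; the submitters' processing notes name featureCounts 1.5.0-p3, HISAT2 2.0.5, DESeq2 1.16.1 and StringTie 1.3.3b. The sources used here do not give their order, the strand setting, the genome build or whether the molecular identifiers of the adapters were used. The deposited FPKM values divide counts by gene length and a library constant, per the file headers and values, and served here only for levels and shares between members. The authors' group means, a signal scale in the deposited table, were not used. The deposited log2 fold changes and p-values, the authors' own comparison per the file headers, are quoted in 1 sentence.

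Total counts per library were 16550007 to 17724689, and genes of the mitochondrial genome took 15.6% to 22.9% of counts in MOD and 27.1% to 29.8% in XHT. Counts were tested in R 4.3.3 with edgeR 4.0.16 (TMM, filterByExpr with a minimum count of 10 and a minimum total of 15, robust quasi-likelihood fit, no covariates, Benjamini-Hochberg adjustment). CPM are TMM-normalised, with a prior count of 2 on the log2 scale. No pair of libraries was a duplicate. Intervals and the 3-count limit cover counting error only. The fit was tested on simulated data. Where identifiers shared a symbol, the most counted one was used. Named genes were the 5 members, Yap1, Wwtr1, Tgfb1 and Ankrd1, up to 4 called genes per list by lowest p, and 3 genes closest to each member. Others are marked, are list members that were not called, or show the range or the other direction within a list. The members and lists were chosen with earlier results of these data known.

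Alternatives were DESeq2 size factors, total counts, no filter, DESeq2 1.42.0, the replicate block, each library left out, a prior count of 0.5 for ratios between members and fibroblast markers without Col1a1 and Col1a2; the legacy quasi-likelihood fit was added after the data were seen. Promoter windows were taken from RefSeq on GRCr8, where Ctgf, Cyr61 and Wisp3 matched; Nov, Wisp1 and Wisp2 had no entry.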

Additional observations from a re-analysis of the deposited data

How the results depend on the processing

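Ctgf, Nov, Wisp1 and Wisp2 kept a negative log2 fold change under every alternative run. Leaving out each library in turn gave -2.15 to -1.47 for Ctgf, -3.09 to -2.07 for Nov, -7.98 to -6.75 for Wisp1, -8.05 to -4.73 for Wisp2 and -1.37 to 0.57 for Cyr61. Over all alternatives the adjusted p ran from 0.00121 to 0.125 for Ctgf, 0.000182 to 0.0929 for Nov, 2.21e-17 to 0.0549 for Wisp1, 0.00134 to 0.104 for Wisp2 and 0.0608 to 0.967 for Cyr61. The number of members called ran from 0 to 4, and it was 0 without XHT 1. Without the count filter Wisp2 was at -5.28 (adjusted p = 0.0522), with more genes in the adjustment. Scaling to total counts turned Cyr61 to -0.31, called 925 genes higher and 4320 lower against 1792 and 2336, moved the median of all genes from -0.02 to -0.42, and called 9 Hippo genes, 8 Wnt genes and 7 receptors and partners other than integrins. DESeq2 called 2718 genes higher, and 8 Hippo genes. With the replicate number as a block Ctgf was at -1.76 (adjusted p = 0.0762) and Cyr61 at -0.54. Deviations from the group means correlated at -0.07, 0.25 and 0.12 for numbers 1, 2 and 3. By these values MOD 1 and MOD 2 were closest to XHT 2, and MOD 3 to XHT 1. Deviations from a mean of 3 libraries are tied to one another, so they cannot settle whether the numbers paired the libraries. With single libraries left out, 4 to 3487 genes were called higher and 4 to 3421 lower. The number called per list then ran from 0 to 14 for Hippo genes, 0 to 10 for YAP and TAZ targets and for TGF-beta genes, 0 to 9 for Wnt genes, 0 to 4 for SRF and AP-1 genes, 0 to 3 for integrins, 0 to 8 for other receptors and partners and 0 to 5 for proteases. The ratio difference of Wisp1 to Wisp2 ran from -1.47 to 1.09, and that of Ctgf to fibroblast markers from -0.07 to 0.86, or -0.40 without the collagen markers. The causes of these shifts were not tested. Counts per gene length give the shares of the deposited FPKM by construction, so they are no separate check. Depth limits Wisp1 in XHT, with at most 6 counts per library.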
